A study of Mus musculus with 6 samples.

Results

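Ribosomal protein genes and their annotated copies were followed in undifferentiated mouse embryonic stem cells (mESCs) with and without huntingtin. The members are the genes of the deposited table whose symbol starts with Rpl or Rps and a digit, together with Rplp0, Rplp1, Rplp2 and Rpsa and without the Rps6k kinases. They number 91 of 23412 genes. Of these, 46 encode proteins of the large ribosomal subunit, 31 encode proteins of the small subunit, 5 are copies with -ps in the symbol, and 9 are paralogs or genes with a similar symbol. The mRNA-seq data come from R1 mESCs (wild type, 129Sv, 3 libraries) and HN mESCs (Htt-/-, 129Sv, 3 libraries), and in HN cells the Htt promoter and exon 1 are deleted. Both lines were grown on gelatin without feeder cells in medium with LIF and the inhibitors SU5402, PD184352 and CHIR99021. R1 and HN are a single line each, so the deletion and any other difference between the lines cannot be told apart. RNA of both lines was collected on 3 dates, and libraries with the same replicate number share a date.

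Ribosomes consist of a large and a small subunit, each built of rRNA and many proteins that are mostly needed in equal amounts. The mRNAs of these proteins are among the most abundant of a growing cell and most of them start with a tract of pyrimidines, which ties their translation to mTOR signalling. In mammals, each protein has usually 1 functional gene with introns, while reverse transcription of its mRNA has left many processed copies elsewhere in the genome. A processed copy has no introns and its bases resemble those of the mRNA, and a read from either can therefore match both.

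Rps15a, a small subunit protein gene at chr7:118104372-118116188 on the minus strand (GRCm38, GENCODE M21), and its copy Rps15a-ps6, at chr11:6172644-6173036 on the minus strand, show how close such a pair can be. These sequences are given because the copy had the lowest log2 fold change of the members and its parent gene was higher in HN. The first 240 bases from the start codon in the GENCODE M21 transcripts follow, with the bases that differ between the pair in capitals.
Rps15a: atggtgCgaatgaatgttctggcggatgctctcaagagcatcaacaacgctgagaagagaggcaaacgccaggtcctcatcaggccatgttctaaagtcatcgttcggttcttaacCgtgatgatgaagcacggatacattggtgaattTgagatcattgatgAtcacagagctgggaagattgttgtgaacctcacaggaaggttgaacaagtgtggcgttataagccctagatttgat
Rps15a-ps6: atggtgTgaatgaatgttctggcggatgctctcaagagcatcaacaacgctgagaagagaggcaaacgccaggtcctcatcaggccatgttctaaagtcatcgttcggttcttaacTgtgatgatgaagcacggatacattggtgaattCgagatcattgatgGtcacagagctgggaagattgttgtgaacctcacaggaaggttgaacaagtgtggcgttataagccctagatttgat
Over the 393 bases from the start to the stop codon, the copy differed from the gene at 5 positions, counted from the first base of the start codon, and was 98.7% identical. The differences are C7T, C117T, T150C, A164G and T301C, with the base of Rps15a first. With C7T, codon 3 of the copy is a stop codon. The longest stretch without a difference is 136 bases. Of the 50-base stretches of the copy, 50 being the read length, 55.2% also occur in transcripts of Rps15a. Rps15a-ps4, another copy on chromosome 4, differed from Rps15a at 10 of the same 393 positions, and its first stop codon is codon 107 of 131. The reference genome is not that of 129Sv, and sites where the strains differ were not analysed here.

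The values are normalized read counts, that is, reads on the exons of a gene divided by the size factor of the library. Between 1640391 and 3866717 reads per library lay on genes. Htt was at 230, 257 and 200 normalized counts in the R1 libraries and at 18.2, 58.1 and 54.2 in the HN libraries, in the order of replicates 1 to 3 used for all values below. All 8 embryonic stem cell markers examined were expressed, with summed levels from 12130 to 17910 in R1 and from 12840 to 17300 in HN. Markers of other cell types (10 genes) had summed levels from 118 to 286 in R1 and from 141 to 287 in HN. None of these 10 genes was at 0 in all libraries. Single markers differed between the lines beneath these sums. With the date as a block in limma, 5 of the 8 stem cell markers passed at an adjusted p-value under 0.05, with Zfp42 lower in HN (log2 fold change -0.79) and Klf4, Esrrb, Nanog and Dppa5a higher (0.53, 0.37, 0.28 and 0.27). Zfp42 passed in DESeq2 without the block as well (adjusted p = 0.000404). Of the 10 other markers, T was higher (1.21) and Thy1 lower (-1.54) with the block. In DESeq2 with the block, Dppa5a and T did not pass (adjusted p = 0.0525 and 0.0698), and Thy1 was given no adjusted p-value. Their part in the differences of the ribosomal protein genes was not tested.

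The median ribosomal protein gene had nearly the same level in both lines, and a few members lay apart from it. The test covered 86 of 91 members, those with a mean of at least 5 over the libraries. Rpl26, Rpl30, Rpl31-ps12, Rpl34-ps1 and Rpl3l lay under this level. The median log2 fold change, HN minus R1, was -0.01 for the 75 tested subunit protein genes and -0.01 for all 14276 tested genes. Under other scalings the subunit median was 0.0075 (median centring) and -0.07 (quantile normalization). Without R1 replicate 1 it was 0.16, and without R1 replicate 3 it was -0.14. With all libraries it was -0.01 for the 44 large subunit genes and -0.00082 for the 31 small subunit genes. The log2 fold change lay between -0.25 and 0.25 for 66 of the 75 subunit genes, or 88.0%, and for 56.2% of all tested genes. Low genes vary more, and among the tested genes with a mean of at least 1000 it lay in that range for 45 of 49 subunit genes and 75.6% of 360 genes.

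By limma without a term for the date, 1 member was higher in HN (Rplp0) and 1 was lower (Rps15a-ps6) at an adjusted p-value under 0.05. Of all tested genes, 0.119% were called higher and 0.126% lower in this fit. With the date as a block, limma called 8 members higher (Rplp0, Rpl29, Rps3a1, Rps15a, Rpl3, Rps9, Rpl28 and Rps2) and 1 lower (Rps15a-ps6), against 5.46% of all tested genes higher and 4.02% lower. Genes with high counts were called more often in this fit. Among the 360 tested genes with a mean of at least 1000, it called 64 higher and 15 lower. Of the 49 subunit genes at that level, it called 4 higher and 0 lower. With the block, edgeR called the same 8 members higher and DESeq2 called 7 of them, without Rpl28 (adjusted p = 0.245). DESeq2 without the block called 3 members higher (Rplp0, Rpl29 and Rps3a1) and 1 lower, against 0.476% and 0.308% of all tested genes. The 8 genes called higher with the block encode 4 proteins of the large subunit and 4 of the small subunit. Among the 71 subunit genes with a mean of at least 100, the standard error of the log2 fold change was 0.178 to 0.285 without the block and 0.0837 to 0.125 with it. Without the block, differences of the size found for most members were therefore not detectable with 3 libraries per line. With the block, 67 of the 75 tested subunit genes still gave no call.

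**Figure D1:**
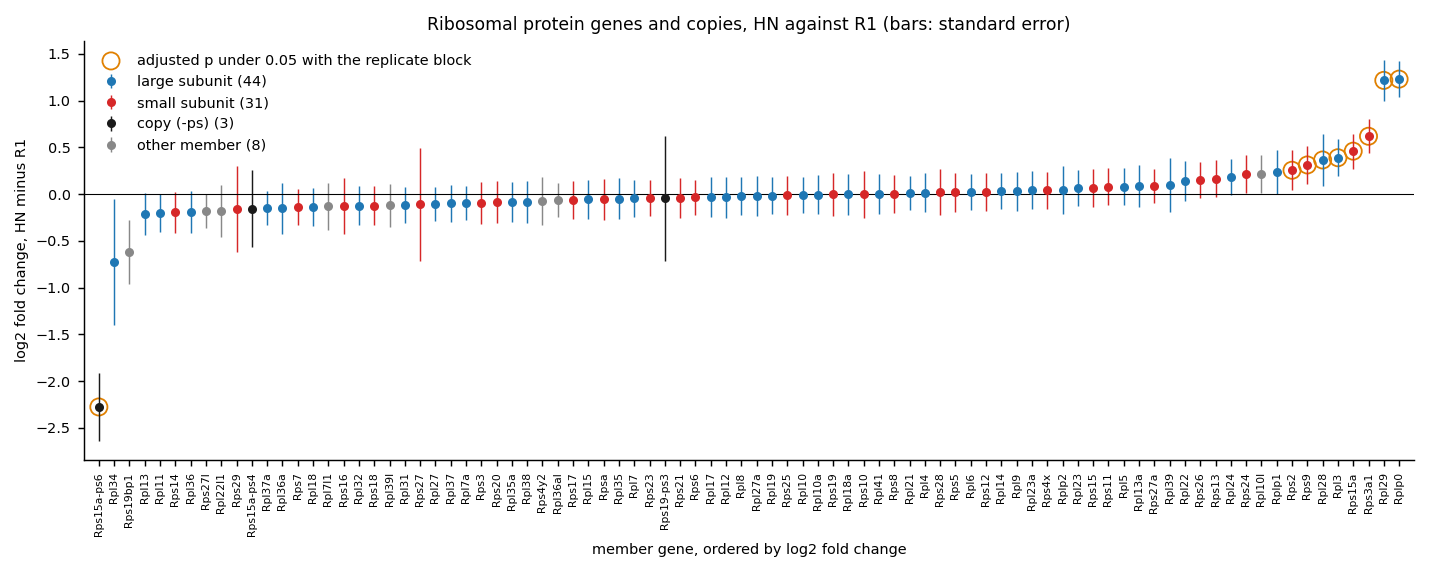
Log2 fold change of each of the 86 tested members, HN minus R1, with its standard error from limma without the block as a bar, ordered from lowest to highest and coloured by group. Rps15a-ps6 lies lowest at -2.28, Rpl29 and Rplp0 lie highest at 1.22 and 1.23, and orange rings mark the 9 members called with the date as a block.

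Rplp0 encodes the protein that anchors the stalk of the large subunit, to which translation factors bind. It lies at chr5:115559467-115563727 on the plus strand (GRCm38). Its normalized counts were 2485, 2115 and 1816 in R1 and 5381, 5051 and 4526 in HN. Every HN library was above every R1 library. R1 averaged 2138 ± 335 and HN 4986 ± 431 (SD, n = 3), a 2.33-fold difference and a log2 fold change of 1.23 ± 0.19 (SE; limma adjusted p = 0.0209, with the block 4.8e-13). The difference within dates was 1.11, 1.26 and 1.32 on the log2 scale. The other proteins of the stalk are encoded by Rplp1 and Rplp2. Rplp1 was at 1801 ± 578 in R1 and 2075 ± 370 in HN (mean and SD of 3 libraries; limma adjusted p = 1.0, with the block 0.0934), and Rplp2 at 571 ± 164 and 581 ± 130 (adjusted p = 1.0, with the block 0.857). Neither passed the test in either fit. Per kb of mRNA, Rplp0 was at 1575 normalized counts in R1 and 3672 in HN, and Rplp1 at 3610 and 4157. Of the 50-base stretches of the Rplp0 mRNA, 41.8% occur in transcripts of 8 other genes, mostly processed copies.

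Rpl29, at chr9:106429454-106431568 on the plus strand, encodes a small protein on the surface of the large subunit, which is also known to bind heparin. Its normalized counts were 164, 151 and 102 in R1 and 349, 301 and 307 in HN. The lines did not overlap. The means were 139 ± 32.4 and 319 ± 26.5 (SD, n = 3), a 2.29-fold difference (log2 fold change 1.22 ± 0.22 SE; limma adjusted p = 0.0564, with the block 8.1e-09). DESeq2 called Rpl29 without the block as well (adjusted p = 9.4e-05). The mRNA of Rpl29 shares 78.5% of its 50-base stretches with transcripts of 84 other genes. Of the 84 genes found over all its transcripts, 81 are annotated as pseudogenes, and 3 of these are in the deposited table. At 393 normalized counts per kb on average, Rpl29 ranked 71 of 77 subunit genes by level.

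Rps3a1 and Rps15a, both of the small subunit, were the other subunit genes whose libraries were all higher in HN. Rps3a1 (chr3:86137940-86142702, minus strand), whose protein lies near the mRNA exit of the small subunit, was at 740, 609 and 565 normalized counts in R1 and 1052, 955 and 917 in HN. The lines did not overlap, with a 1.53-fold difference of the means (log2 fold change 0.62 ± 0.18 SE; limma adjusted p = 0.437, with the block 1.1e-05). Rps15a was at 914, 739 and 712 in R1 and at 1192, 943 and 1112 in HN, so that the lowest HN library was just above the highest R1 library. Its log2 fold change was 0.46 ± 0.19 (SE; limma adjusted p = 0.755, with the block 0.00074). In all, the lines did not overlap, with HN higher, for 4 of 86 members, against 5.23% of all tested genes. They did not overlap with HN lower for 2 members (Rps15a-ps6 and Rpl34), against 5.54%.

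The remaining 4 genes passed the test with the block alone and their lines overlapped. Rpl3, whose protein lies near the peptidyl transferase centre, was at 1805, 1373 and 1197 normalized counts in R1 and 2068, 1885 and 1708 in HN (log2 fold change 0.39 ± 0.20 SE; limma adjusted p = 0.965, with the block 0.0029). On each date, the HN library was the higher of the pair. Rps9, a protein that binds the rRNA early in assembly of the small subunit, was at 1765, 1603 and 1272 in R1 and 2117, 2027 and 1604 in HN (log2 fold change 0.31 ± 0.20 SE; with the block, limma adjusted p = 0.0143). Its differences within dates were close together, from 0.26 to 0.34. Rps2, a small subunit protein near the mRNA entry, was at 5653, 4464 and 3814 in R1 and 6441, 5344 and 4750 in HN (log2 fold change 0.25 ± 0.22 SE; with the block, limma adjusted p = 0.0491). Rpl28 was at 491, 317 and 209 in R1 and 478, 415 and 350 in HN (log2 fold change 0.36 ± 0.28 SE; with the block, limma adjusted p = 0.0414). Rpl28 was not higher in HN on the first date, where the log2 difference was -0.04. An exon of Ube2s on the opposite strand covers 9.95% of the exon bases of Rpl28. Reads of this overlap cannot be told apart by strand, as the library kit does not mark it. On the same strand, the snoRNA gene Snora64 covers 7.32% of the exon bases of Rps2 and the snoRNA gene Gm22077 2.93% of those of Rpl3.

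**Figure D2:**
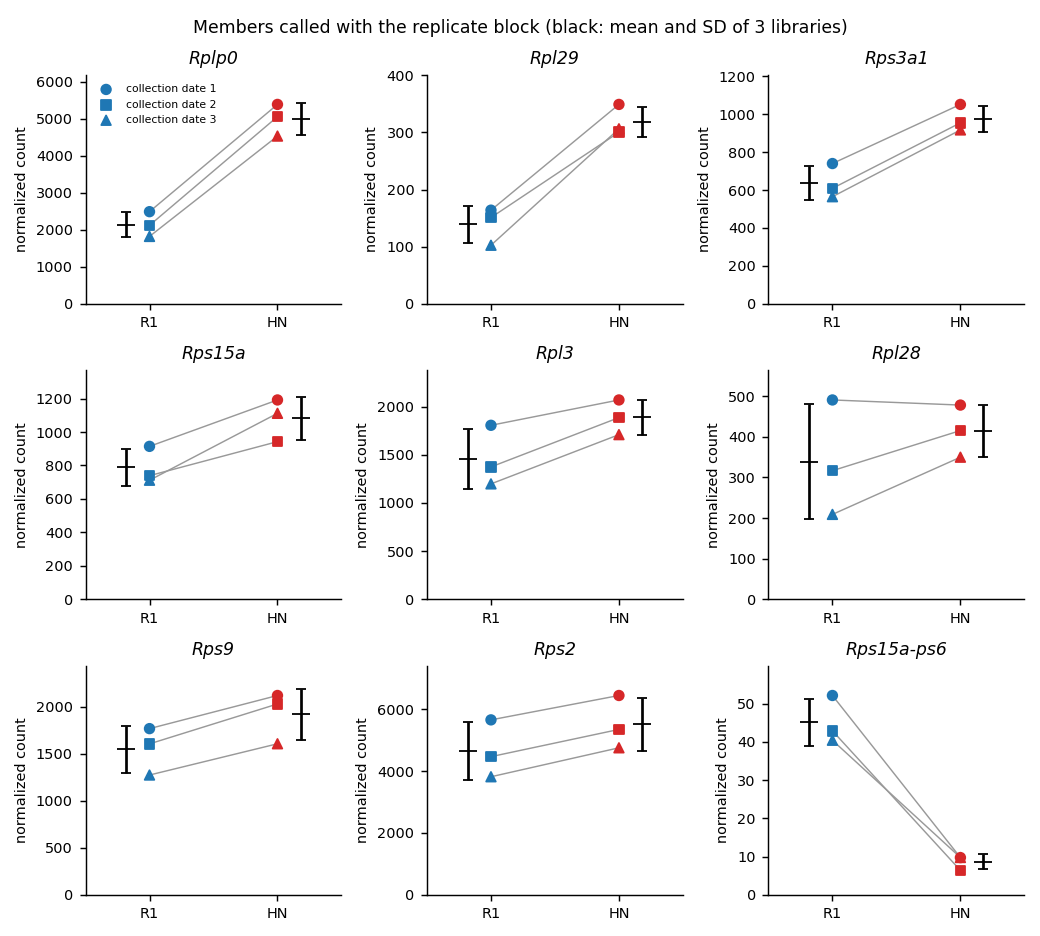
Normalized counts of the 9 members called with the block, 1 panel per gene, with R1 libraries in blue, HN libraries in red, grey lines joining libraries of the same date and black bars for the mean and SD of 3 libraries. Rplp0, Rpl29, Rps3a1 and Rps15a are higher in every HN library than in every R1 library, Rps15a-ps6 is lower, and the lines overlap for the other 4 genes.

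These calls did not all hold when single libraries were left out. With the block, leaving out 1 library also takes its date out of the comparison, as its partner is then alone on that date. The 6 such fits therefore amount to leaving out each of the 3 dates in turn. Rplp0, Rpl29, Rps3a1, Rps15a and Rps15a-ps6 passed in all of them. Rpl3, Rps9 and Rps2 did not pass without R1 replicate 2 or without HN replicate 2, and Rpl28 did not pass without replicate 2 or 3 of either line. Calls over all tested genes moved too. They numbered 1354 with all libraries and 519 without R1 replicate 2 (2.3% higher, 1.33% lower) or 509 without HN replicate 2 (2.08% higher, 1.49% lower). Without the block, Rplp0 and Rps15a-ps6 passed only without R1 replicate 3 or without HN replicate 3, and their highest limma adjusted p-values over the 6 fits were 0.224 and 0.27. With the block and without the third date, 7 members were called higher and 6 lower, against 5.86% and 5.93% of all tested genes. Those called lower were Rps15a-ps6, Rpl36a, Rps27l, Rpl13, Rpl36 and Rps14, and the log2 fold change of the last 5 ranged from -0.35 to -0.24.

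The genes around the called members had medians nearer to 0. Within 1 Mb of Rplp0, the median log2 fold change of 36 other tested genes was -0.04, and within 1 Mb of Rpl29 it was -0.07 over 30 genes. It was 0.10 over 8 genes around Rps3a1, 0.20 over 11 genes around Rps15a, and -0.04 over 31 genes around Rps15a-ps6. With the block, 8 of the genes around Rplp0, 4 around Rpl29, 1 around Rps3a1, 3 around Rps15a and 6 around Rps15a-ps6 were called. Of all tested genes, 5.46% were called higher and 4.02% lower with the block. Single genes around Rplp0 ranged from -0.53 (Oasl1) to 1.54 (Hspb8). Around Rpl28, Rpl3, Rps2 and Rps9 the medians were -0.07, -0.06, 0.04 and -0.08. With the block, 2 of 31, 5 of 42, 9 of 63 and 3 of 28 of those genes were called.

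At the lower end, the lines overlapped for 4 of the 5 subunit genes with the lowest log2 fold change, although each of the 4 was lower in HN on all 3 dates. Rpl11, whose protein binds Mdm2 when ribosome assembly is disturbed, was at 536 ± 122 in R1 and 459 ± 38.8 in HN (SD, n = 3). Its log2 differences within dates were -0.46, -0.13 and -0.02. Rpl13, Rps14 and Rpl36 had log2 fold changes of -0.21, -0.20 and -0.19, with block standard errors of 0.088, 0.084 and 0.091. None passed with the block, where the limma adjusted p-values of these 4 genes ranged from 0.132 (Rpl13) to 0.252 (Rpl11). Rpl34, the lowest at -0.72 ± 0.67 (SE), was at 8.5, 8.9 and 9.4 normalized counts in R1 and 2.4, 6.4 and 7.6 in HN. These are few reads, and its limma adjusted p-value was 1.0 (with the block 0.445).

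The members with the highest counts were Rpl4, Rps3, Rps2, Rpl13a and Rpl8. Rpl4, a protein that lines the exit tunnel of the large subunit, was at 8154, 6452 and 5891 normalized counts in R1 and 7833, 6360 and 6415 in HN. Its lines overlapped almost fully, with a log2 fold change of 0.01 (limma block SE 0.085). Rps3, which is also known for a role in DNA repair, had a log2 fold change of -0.09, Rpl13a 0.08 and Rpl8 -0.02, and none passed either fit. Per kb of mRNA, Rps2 ranked first among the 77 subunit genes at 5278 normalized counts, followed by Rpl8 at 5213, Rps14 at 5085 and Rpl7 at 5070. These levels lie closer together than the libraries of any of the 4 genes.

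Rpl10, Rpl36a, Rpl39 and Rps4x lie on the X chromosome. Rpl10, a protein that joins the large subunit late in its assembly, was at 1521 ± 269 in R1 and 1505 ± 172 in HN (SD, n = 3). Rps4x was at 2182 ± 398 and 2231 ± 275, Rpl39 at 339 ± 138 and 350 ± 88.3, and Rpl36a at 409 ± 172 and 349 ± 46.3. None of the 4 genes passed the test in either fit, and their log2 fold changes ranged from -0.15 to 0.10.

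Among the copies, Rps15a-ps6 fell in HN. It was at 52.2, 42.9 and 40.4 normalized counts in R1 (49, 58 and 30 reads) and at 9.7, 6.4 and 9.7 in HN (8, 9 and 9 reads). Each HN library was well below each R1 library. The log2 fold change was -2.28 ± 0.36 (SE; limma adjusted p = 0.0213, with the block 1.3e-06; DESeq2 adjusted p = 0.00047). Set against the parent gene, whose counts were higher in HN, Rps15a-ps6 had 5.7%, 5.81% and 5.68% of the normalized counts of Rps15a in the R1 libraries and 0.816%, 0.677% and 0.876% in the HN libraries. The share averaged 5.73% ± 0.07 for R1 and 0.79% ± 0.10 for HN (SD, n = 3). The spread within a line was small beside this difference. With 30 to 58 reads of the copy per R1 library and 8 or 9 per HN library, this spread is itself poorly known. Summed over gene and copy, the counts were 834 ± 116 in R1 and 1091 ± 129 in HN. How much of the signal on either comes from reads that match both was not tested.

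The other copies with -ps in the symbol gave few reads and no call. Rps15a-ps4 was at 22.5 ± 5.1 in R1 and 21.2 ± 10.4 in HN (log2 fold change -0.16 ± 0.41 SE), and Rps19-ps3 at 10.6 ± 5.7 and 10.5 ± 7.7 (log2 fold change -0.05 ± 0.67 SE). Rpl31-ps12 had at most 2.4 normalized counts in a library, and Rpl34-ps1 was at 0 in every library. The median over the 3 tested copies was -0.16. Further annotated copies of these genes were not analysed here. All 5 copies together took from 0.00114% to 0.00367% of the reads.

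The paralogs gave no call in either fit. Rpl10l, an intronless relative of Rpl10 on an autosome that is known to act in male germ cells, was at 138 ± 14.4 in R1 and 161 ± 21.5 in HN (SD, n = 3). It was the only one of the 8 tested genes of this group above 0 (log2 fold change 0.22). Rpl22l1, the relative of Rpl22, was at 114 ± 38.5 and 98.4 ± 22.3, while Rpl22 itself was at 1464 ± 345 and 1602 ± 283. Per kb, the relative lay at 206 normalized counts in R1 against 3088 for Rpl22. Rps27l was at 633 ± 93.8 and 556 ± 35.6, Rpl36al at 362 ± 27.5 and 346 ± 32.5, and Rpl39l at 166 ± 46.3 and 150 ± 16.6. Rps4y2, listed as Rps4l in GENCODE and annotated there as a transcribed processed pseudogene, had 231 to 726 reads per library. It was at 407 ± 114 and 388 ± 114, and Rpl7l1 at 1022 ± 284 and 933 ± 257. Rps19bp1, which encodes a protein that binds Rps19 rather than a part of the ribosome, had the lowest value of the group at 63.1 ± 14.5 and 43.1 ± 18.9 (log2 fold change -0.62 ± 0.34 SE; limma adjusted p = 1.0, with the block 0.0544). It was lower in HN on each date. The median of the group was -0.12.

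Some core genes of the ribosome had almost no reads. Rpl30 had 1 read in 1 library and none in the other 5, Rpl26 likewise, Rpl34 was at 7.2 normalized counts on average and Rps27 at 9.2. Rps16 was at 32.2 and Rps29 at 41.0, while the other 71 subunit genes had means from 229 to 6851. Per kb of mRNA, these 6 genes ranked 72 to 77 of 77, at 0.207 to 105 normalized counts, against at least 393 for the others. The share of their 50-base stretches that occur in transcripts of other genes ranged from 35.8% (Rps29) to 98.7% (Rps27), with a median of 60.1%. That of the other 71 genes had a median of 62.2%. The low counts held in both lines, and the comparison of these 6 genes has little depth. How reads that match several places were handled is not given in the sources used here, and its part in these counts was not tested.

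**Figure D3:**
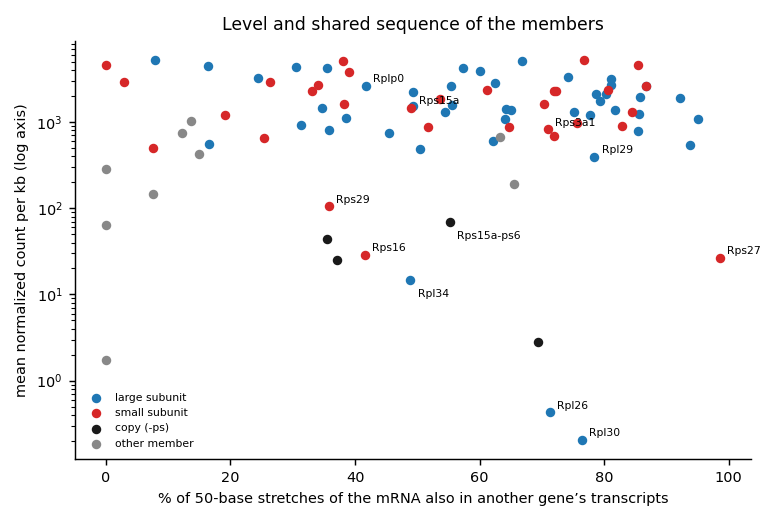
Mean normalized count over the 6 libraries per kb of mRNA (log axis) of each member with reads, against the percentage of 50-base stretches of its mRNA found in other genes’ transcripts, coloured by group. The subunit genes Rps29, Rps16, Rps27, Rpl34, Rpl26 and Rpl30 lie below the rest, with shared percentages from 35.8% to 98.7%.

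Of the reads on genes, the members together took 5.76%, 4.33% and 4.69% in the R1 libraries of dates 1 to 3, and 5.66%, 4.34% and 4.90% in those of HN. The libraries of the same date lay closer to each other than to those of other dates. R1 averaged 4.93% ± 0.74 and HN 4.97% ± 0.66 (SD, n = 3), a difference of 0.04 percentage points (exact permutation test, two-sided, p = 0.9, where the smallest p that 3 against 3 allows is 0.1). This test leaves the dates out of account. Within dates 1 to 3, HN minus R1 was -0.097, 0.010 and 0.21 percentage points. The large subunit genes took 2.84% ± 0.43 in R1 and 2.89% ± 0.39 in HN (SD), and the small subunit genes 1.97% ± 0.32 and 1.97% ± 0.29. Without Rplp0, the subunit genes took 4.72% in R1 and 4.66% in HN.

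**Figure D4:**
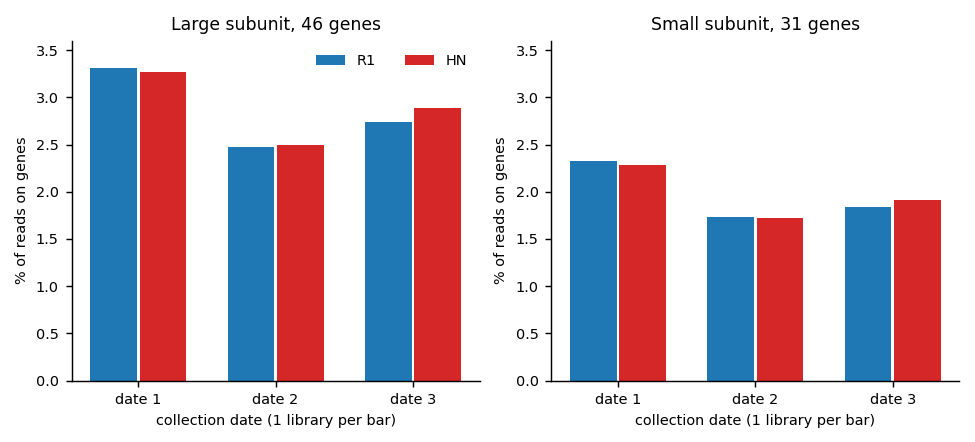
Percentage of the reads on genes taken by the 46 large subunit genes (left) and the 31 small subunit genes (right), with 1 bar per library, R1 in blue and HN in red, by collection date. Both lines have their highest bars on the first date, and the pair of a date differs by at most 0.15 percentage points.

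The level of the members went with the collection date in both lines. In both lines, the first date had the highest normalized count of the 3 for 65 of the 75 tested subunit genes and for 67 of 86 members, against 14.0% of all tested genes. Scaled to the total reads of a library, the count was 66 of 86 members, against 12.8%. The order of the other dates turned with the scaling. By the summed share of reads of all members the second date was lowest in both lines, and by the normalized count of the median subunit gene the third. The median subunit gene lay 0.31 above its own mean on the log2 scale in R1 replicate 1 and 0.21 above it in HN replicate 1, and 0.26 below it in R1 replicate 3 and 0.11 below it in HN replicate 3. Accordingly, the median log2 difference between the lines over subunit genes was -0.11 on the first date, -0.03 on the second and 0.14 on the third. All 3 medians were small, and their sign was not the same on all dates. HN was higher on all 3 dates for 14 members, against 20.3% of all tested genes, and lower on all 3 for 19, against 21.1%. Markers of other cell types moved with the date too. Their summed level was 118 and 120 in R1 on the first and second dates and 286 on the third, and 147, 141 and 287 in HN, with the embryonic stem cell markers lowest on the third date in both lines. Their part in the pattern of the ribosomal protein genes was not tested.

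**Figure D5:**
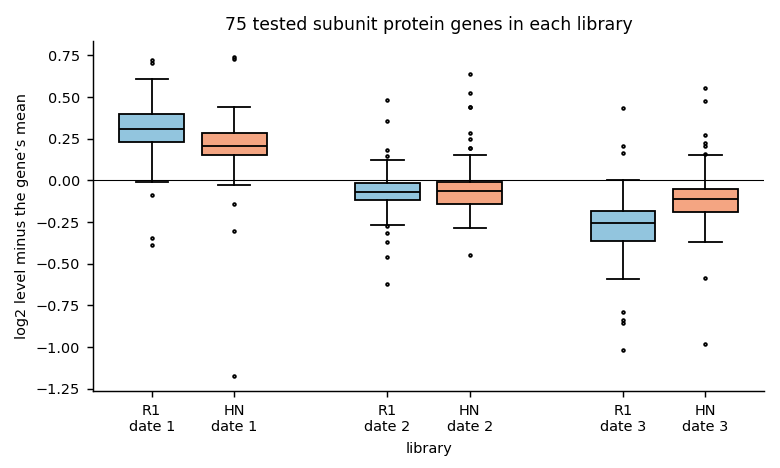
Log2 level of each of the 75 tested subunit genes minus the mean of that gene over the 6 libraries, as 1 box per library (line at the median, box from the lower to the upper quartile, whiskers to 1.5 times the box height, points beyond), R1 in blue and HN in orange. The boxes of the first date lie highest, with medians of 0.307 in R1 and 0.208 in HN, and those of the third date lowest, at -0.257 and -0.113.

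The start sites of the called genes were looked up among the promoters of RefSeq (GRCm38.p6), which hold 66 of 91 members and 6 of the 9 called ones. They are shown for the genes called higher with the block, each of which was called on its own. Each sequence runs from 50 bases before to 30 bases after the annotated start. Capitals mark runs of 8 or more C or T on the coding strand and the motif CCGGAAG, searched on both strands, which is the core that Ets factors are known to bind. The motif and the runs do not overlap in these sequences.
Rplp0, chr5:115559417-115559496, plus strand: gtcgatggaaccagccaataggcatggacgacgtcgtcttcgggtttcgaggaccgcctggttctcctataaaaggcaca
Rps3a1, chr3:86142639-86142718, minus strand: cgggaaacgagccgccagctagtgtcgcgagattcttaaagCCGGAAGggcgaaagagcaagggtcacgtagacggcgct
Rps15a, chr7:118116118-118116197, minus strand: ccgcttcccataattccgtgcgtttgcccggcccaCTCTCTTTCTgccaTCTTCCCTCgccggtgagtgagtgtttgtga
Rpl28, chr7:4792915-4792994, plus strand: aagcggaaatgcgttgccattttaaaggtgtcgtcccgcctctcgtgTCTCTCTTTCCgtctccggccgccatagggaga
Rps9, chr7:3703991-3704070, plus strand: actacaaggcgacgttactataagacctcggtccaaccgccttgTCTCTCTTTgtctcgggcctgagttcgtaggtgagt
Rps2, chr17:24720013-24720092, plus strand: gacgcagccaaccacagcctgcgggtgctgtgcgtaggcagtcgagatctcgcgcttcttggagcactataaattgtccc
A run of 8 or more pyrimidines within 50 bases of the start was present for 48 of 57 subunit genes with a sequence, or 84.2%, against 39.3% of all 27025 genes. It was present for 4 of the 6 called genes shown, in 1 of them (Rps2) beyond the printed bases. Rps15a, Rpl28 and Rps9 have it at or next to the start, while Rplp0 and Rps3a1 have none in these windows. CCGGAAG was found between 250 bases before and 50 bases after the start for 24 of 57 subunit genes, or 42.1%, and for 9.93% of all genes. Among the 6 called genes it was present in 2. Both features are thus common in the family as a whole.

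Genes that act together with the ribosomal proteins gave no call without the block. Fau encodes a small subunit protein that is made as a fusion to a ubiquitin-like protein. It was at 868 ± 220 in R1 and 855 ± 172 in HN (SD, n = 3) and did not pass either fit. Of 18 tested translation genes with pyrimidine-tract mRNAs, among them Fau, 3 were higher with the block and none lower, against 5.46% of all tested genes higher and 4.02% lower, which also serve as background for the lists that follow. They were Eef2, the elongation factor for translocation (log2 fold change 0.39, limma adjusted p = 0.00214), Tpt1 (0.41, 0.00259) and Pabpc1, the poly(A)-binding protein (0.37, 0.00308). Among the 360 tested genes with a mean of at least 1000, 64 were called higher and 15 lower with the block. Of 35 ribosome biogenesis genes, Ubtf, an activator of rRNA transcription, Gnl3 and Rrp9 were higher and Nip7 was lower with the block (log2 fold changes 0.36, 0.32, 0.35 and -0.41). In DESeq2 with the block, Gnl3 and Rrp9 did not pass (adjusted p = 0.0993 and 0.241). None of 7 chaperones of ribosomal proteins passed. Of 9 genes listed for the control of these mRNAs, Larp1 was higher (0.30, limma adjusted p with the block 0.0498) and Eif4ebp1 lower (-0.35, 0.0139). Mtor had a log2 fold change of -0.01. Larp1 did not pass in DESeq2 with the block (adjusted p = 0.199).

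The proteins of the mitochondrial ribosome are encoded by other genes, with symbols in Mrpl or Mrps. Of 76 tested, 59 had a log2 fold change below 0, with a median of -0.12. Over all 14276 tested genes, 7354 lay below 0 and the median was -0.01. With the block, Mrps24 was higher, and Mrpl15, Mrps9, Mrps27, Mrps31 and Mrps35 were lower, against 5.46% of all tested genes higher and 4.02% lower. In DESeq2 with the block, Mrpl15 alone of these passed (adjusted p = 0.0481). Their summed share of the reads was 0.609% ± 0.007 in R1 and 0.547% ± 0.032 in HN (SD, n = 3; exact permutation test, two-sided, p = 0.1, the smallest this design allows). On each date the HN library had the lower share.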

How the data were processed

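RNA from 3 R1 and 3 HN cultures was measured by mRNA-seq. Per the labels and the study's methods, the authors aligned the paired 50-base reads to mm10 with STAR, removed duplicates with Picard, counted reads on exons with HTSeq and divided them by DESeq2 size factors. The deposited values are this normalized signal per gene. Versions, annotation, strand setting and the handling of reads with several matches are not given in the sources used here. The low values showed what 1 read is worth in each library, and 100% of values came out whole (within 0.1 reads), so reads were recovered for depth and count-based alternatives. Gene names of 27 lines have been turned into dates.

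Values were transformed to log2(value + 1), so fold changes of low genes are understated. The lines were compared with limma 3.58.1 (variance trend, R 4.3.3) over 14276 genes with a mean of at least 5, with Benjamini-Hochberg adjustment over all of them. A gene was called at an adjusted p-value under 0.05. The main fit has no block, as the study's methods name none. Same-numbered libraries share a collection date in the labels, and their deviations from the line means correlated at 0.25, 0.69 and 0.77. R1 replicate 1 correlated more with HN replicate 2 (0.34) than with its own partner. The other pairs of different dates ranged from -0.71 to -0.10. The fit with the replicate block is therefore given beside the main fit. edgeR 4.0.16 (quasi-likelihood) and DESeq2 1.42.0 were run on the recovered reads. The limma, edgeR and DESeq2 fits of all 6 libraries, with and without the block, were checked on simulated data. The other alternatives were not checked in this way. P-values measure the spread between cultures of 1 line each.

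Genes were matched to GENCODE M21 by symbol (90 members) or older symbol (1). For each member, the coding transcript with the longest coding sequence, then the shortest, gave the mRNA length and the 50-base stretches, which were searched in all other annotated transcripts on either strand. For pseudogenes the longest transcript was used.

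The members and lists were chosen with earlier results of these data known. Named by rule are Htt, all members called in either limma fit, the 5 highest and 5 lowest log2 fold changes in each group, 4 X-linked members, the 5 with the highest counts, the paralogs, Fau, and the called genes of other lists. A further gene that the rule names is not reported here. Members with near-zero counts, Rplp1, Rplp2, Rpl22, Rpl7 and Mtor were named after their values were seen. Alternatives were pseudocounts of 0.1 and 10, other filters, median centring, quantile normalization, no variance trend, and fits without single libraries or the third date. Leaving out libraries under the block, and all alternatives for the other pathway genes, were chosen after seeing the data.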

Additional observations from a re-analysis of the deposited data

How the results depend on the processing

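Depth limits the low members, and 3 libraries per line limit all of them. The number of members called higher in HN was 1 without the block and 8 with the replicate block, 8 in edgeR with the replicate block, 3 in DESeq2, 7 in DESeq2 with the replicate block, and 2 with a mean of at least 50, with median centring and with quantile normalization. It was 0 without the variance trend and 0 with the third collection date of both lines left out. The number called lower was 1, but 0 with a mean of at least 50, where Rps15a-ps6 is not tested, and 0 without the variance trend. Leaving out single libraries gave 0 to 1 calls in each direction without the block. With the block, where these fits amount to leaving out each date in turn, it gave 4 to 9 higher and 1 to 6 lower. With the block and without the third date there were 7 higher and 6 lower. edgeR without the block called 1 higher and 1 lower. The median over subunit genes was -0.01 and ranged from -0.14 to 0.16 when single libraries were left out. For the other genes of the pathway, calls higher and lower numbered 0 and 0 without the block, 8 and 7 with the replicate block, 10 and 7 in edgeR with the replicate block and 4 and 3 in DESeq2 with the replicate block. The causes of these differences were not tested.

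The difference in summed read share, 0.04 percentage points, was -0.043 with the third collection date of both lines left out and ranged from -0.31 to 0.46 when single libraries were left out. Among uncalled named members, median centring changed the sign for Rpl10 (0.0073). Quantile normalization changed it for Rpl13a (-0.019), Rpl4 (-0.18), Rps19-ps3 (0.10) and Rps4x (-0.064), and leaving out the third date of both lines for Rpl39 (-0.10), Rpl4 (-0.039) and Rps4x (-0.015). Leaving out single libraries gave ranges across 0 for Rpl10 (-0.12 to 0.13), Rpl13a (-0.050 to 0.27), Rpl22l1 (-0.41 to 0.072), Rpl36 (-0.33 to 0.019), Rpl36a (-0.43 to 0.16), Rpl36al (-0.13 to 0.014), Rpl39 (-0.17 to 0.40), Rpl39l (-0.28 to 0.093), Rpl4 (-0.085 to 0.15), Rpl7l1 (-0.34 to 0.072), Rpl8 (-0.15 to 0.10), Rps15a-ps4 (-0.51 to 0.12), Rps19-ps3 (-0.57 to 0.25), Rps3 (-0.22 to 0.089), Rps4x (-0.090 to 0.17) and Rps4y2 (-0.29 to 0.14). None of the 9 members called with the block changed sign under any alternative.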
